A study of Mus musculus with 28 samples.

Results

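Platelets of the mouse carotid–jugular arteriovenous fistula (AVF) were taken from 3 single-cell libraries as the cell barcodes that carried platelet transcripts. A barcode was kept with 200 to 6000 genes and at most 10% of its unique molecular identifiers (UMIs, each a counted RNA molecule) from mitochondrial genes. It was called a platelet where *Ppbp*, *Gp9*, *Itga2b*, and *Clec1b* together gave at least 3 UMIs and 0.5% of its UMIs, the macrophage genes *Lyz2*, *C1qa*, and *C1qb* gave under 0.5%, and *Col1a1*, *Col1a2*, *Col3a1*, and *Dcn* gave under 1.5%. These limits were met by 450 of 16893 kept barcodes, or 2.66%, out of 26438 deposited. The levels of these genes chose the platelets and are therefore given as a description without a test. *Treml1*, a receptor of platelet alpha-granules, is a further platelet marker that the limits did not use.

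The mice were male and female C57BL/6 animals, and all of them, controls included, had a subtotal nephrectomy before the end of a jugular vein was joined to the side of a carotid artery. The controls were jugular veins of the opposite side (contralateral veins), so they came from animals that also carried an AVF. The single-cell libraries were 1 of contralateral veins, 1 of early AVFs, and 1 of late AVFs, each a pool of 10 vessels from both sexes, digested with enzymes, passed through a strainer, and treated with a red blood cell lysis buffer. Bulk RNA was measured in whole ground vessels, 1 library per vessel, from 7 contralateral veins, 8 early AVFs (nominal day 3), 5 mid AVFs (day 10), and 5 late AVFs (day 21). The labels give no day for the single-cell libraries and no donor pairing of veins and AVFs, and by the study's methods the single-cell AVFs were harvested later, on average, than bulk AVFs of the same name.

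Platelets are cell fragments without a nucleus that megakaryocytes shed into the blood, and they carry a small store of RNA from the parent cell. They adhere to an injured vessel wall through the GPIb-IX-V complex and collagen receptors, become activated through receptors for ADP, thrombin, and thromboxane, and aggregate through the integrin made of the *Itga2b* and *Itgb3* products. Their granules release chemokines, growth factors, and clotting proteins. The transcription factors GATA1, NF-E2, and ETS family members drive these genes in megakaryocytes.

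The start regions of 5 platelet genes are shown to make plain how varied these sequences are among genes sharing a cell type. Each of the 5 holds a match to a motif named below. They are the 250 bases before the annotated start (RefSeq, GRCm38.p6), and capitals mark matches to a GATA-type motif (AGATAA), an ETS-type motif (AGGAAG), or an NF-E2-type motif (TGANTCA), searched on both strands. *Ppbp* lies at chr5:90768268-90768517 on the + strand and holds TGANTCA, 204 bases before the start. *Pf4* lies next to it at chr5:90772185-90772434 on the + strand, with an ETS-type match 9 bases before the start. *Gp9*, at chr6:87777820-87778069 on the + strand, has an ETS-type match 16 bases before the start, and *Itga2b*, at chr11:102469884-102470133 on the − strand, has ETS-type matches at 125 and 43 bases. *Gp5*, at chr16:30310782-30311031 on the − strand, has GATA-type matches at 93 and 77 bases and an ETS-type match at 48 bases. The regions of *Clec1b*, *Treml1*, and *Alox12*, which also recur in the results, held no match and are not shown.
Ppbp: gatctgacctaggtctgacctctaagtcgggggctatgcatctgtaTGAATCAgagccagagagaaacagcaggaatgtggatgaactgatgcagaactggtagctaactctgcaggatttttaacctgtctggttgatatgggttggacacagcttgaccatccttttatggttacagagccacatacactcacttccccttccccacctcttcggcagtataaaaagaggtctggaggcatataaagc
Pf4: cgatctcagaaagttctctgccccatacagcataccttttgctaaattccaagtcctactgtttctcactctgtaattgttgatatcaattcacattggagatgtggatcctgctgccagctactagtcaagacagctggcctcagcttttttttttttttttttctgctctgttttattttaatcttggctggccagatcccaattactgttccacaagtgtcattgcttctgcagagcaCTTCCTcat
Gp9: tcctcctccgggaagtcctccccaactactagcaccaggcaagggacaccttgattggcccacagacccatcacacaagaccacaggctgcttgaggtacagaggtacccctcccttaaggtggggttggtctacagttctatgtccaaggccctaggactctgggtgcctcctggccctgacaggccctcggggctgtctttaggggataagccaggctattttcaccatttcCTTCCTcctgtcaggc
Itga2b: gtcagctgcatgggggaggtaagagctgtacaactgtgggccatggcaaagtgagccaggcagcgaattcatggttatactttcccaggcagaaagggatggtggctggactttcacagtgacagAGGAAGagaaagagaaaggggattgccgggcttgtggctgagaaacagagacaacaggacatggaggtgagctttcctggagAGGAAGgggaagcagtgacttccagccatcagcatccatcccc
Gp5: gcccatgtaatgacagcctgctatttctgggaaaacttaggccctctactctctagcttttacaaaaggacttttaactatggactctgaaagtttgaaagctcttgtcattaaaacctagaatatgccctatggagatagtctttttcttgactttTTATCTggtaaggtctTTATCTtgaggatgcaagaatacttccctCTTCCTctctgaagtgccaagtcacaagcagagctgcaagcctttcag

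RefSeq start regions were matched for 70 of 85 platelet genes described here, with 82 regions in all. The GATA-type letters were in 9 of these 82 regions and in 9.99% of all 32851 start regions of the same length. The ETS-type letters were in 34 of 82 regions and in 29.5% of all, and the NF-E2-type letters were in 9 of 82 and in 6.75% of all. A match describes the letters alone, and binding was not measured.

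Platelets made up 5.67% of kept barcodes in contralateral veins, 1.18% in early AVFs, and 0.618% in late AVFs. The counts were 358 of 6319 in the veins (95% exact binomial interval 5.11–6.26%), 56 of 4753 in early AVFs (0.891–1.53%), and 36 of 5821 in late AVFs (0.434–0.855%). The 3 intervals do not overlap, but they cover counting error only, and with 1 library per condition no spread between animals was measured and no test was made. Among kept barcodes with under 1000 UMIs, where most platelets lie, platelets made up 21.3% in veins (19.0–23.8%), 9.70% in early AVFs (7.08–12.9%), and 7.20% in late AVFs (4.84–10.2%). The intervals of early and late AVFs then overlap, and that of veins lies above both. A further 126, 14, and 12 barcodes, in the same order, met the other limits but were over the mitochondrial limit.

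**Figure D1:**
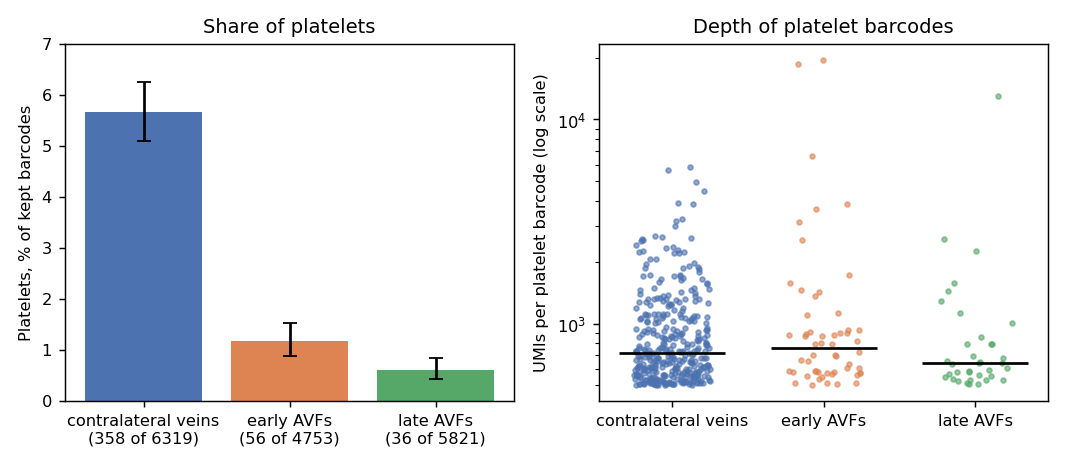
Left, platelets as a percentage of kept barcodes in each single-cell library, with 95% exact binomial intervals and the counts below each bar. Right, UMIs of every platelet barcode on a log axis, with the median marked. The share was 5.67% in veins against 1.18% and 0.618% in AVFs, while the median UMIs of the platelets lay between 640.5 and 759.

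The platelet barcodes held little RNA. Their median was 719 UMIs in veins, 759 in early AVFs, and 640.5 in late AVFs, against 2960, 9152, and 15565 in the other kept barcodes. The lowest UMI count of any deposited barcode was 500, so platelets with less RNA would not appear here. *Malat1*, a long RNA kept in the nucleus, took a median of 0.274%, 0.221%, and 0.451% of platelet UMIs against 2.53%, 1.43%, and 2.00% in the other barcodes. It reached 1% in 19, 4, and 6 platelets of the 3 libraries. *Malat1* did not enter the limits, while depth entered them through the minimum of 200 genes and of 3 platelet-gene UMIs.

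A few barcodes carried much of the platelet RNA in AVFs. In early AVFs, the deepest 2 platelets held 19499 and 18639 of 96503 platelet UMIs (20.2% and 19.3%), and in late AVFs 1 barcode held 13052 of 41623 (31.4%). In veins, the deepest held 5879 of 351768 (1.67%). The summed levels of AVF platelets below therefore lean on 1 to 3 barcodes with over 5000 UMIs, and the ratios of named platelet genes between libraries are also given without them. Scrublet, a doublet caller, called 0 of 6319 kept barcodes in veins, 2 of 4753 in early AVFs, and 113 of 5821 in late AVFs, which means that it did not work in the first 2 libraries. None of the calls was a platelet, and no barcode was removed.

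Near each limit, barcodes on either side had almost the same values. The lowest platelet-gene percentages inside the limit were 0.512, 0.618, and 0.520 in veins, early AVFs, and late AVFs, and the highest outside it were 0.495, 0.498, and 0.489. For the macrophage genes the nearest values were 0.499 inside and 0.501 outside in veins, 0.490 and 0.508 in early AVFs, and 0.463 and 0.512 in late AVFs. For the collagen limit they were 1.49 and 1.53, 1.44 and 1.58, and 1.44 and 1.54.

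Many barcodes rich in platelet genes were left out by the macrophage and collagen limits. The platelet-gene limits alone were met by 6.77% of kept barcodes in veins, 2.59% in early AVFs, and 0.996% in late AVFs, and 70, 67, and 22 of these barcodes were left out. In early AVFs, 53 of those 67 were over the macrophage limit alone, 7 over the collagen limit alone, and 7 over both. Barcodes left out for macrophage genes had a median of 632, 677, and 716 UMIs, with a median of 11.0%, 11.0%, and 9.21% of UMIs in the 85 platelet genes. The platelets themselves had 11.1%, 10.5%, and 8.07%. Median *Malat1* of these left-out barcodes was 0.192%, 0.300%, and 0.431%, also close to that of the platelets. Without the macrophage limit the share of platelets would be 6.36% in veins, 2.29% in early AVFs, and 0.962% in late AVFs.

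The 14 genes listed as platelet-restricted, an unranked list (among them *Ppbp*, *Gp9*, *Itga2b*, *Clec1b*, *Treml1*, *Gp1ba*, *Gp1bb*, *Gp5*, *Gp6*, *Tubb1*, *Mpig6b*, *Tmem40*, and *Alox12*), were used to show where platelet RNA lay in each library. The 4 genes that chose the barcodes are among them, so the split partly restates that choice. In veins, 8085 UMIs of these genes (66.2% of those in kept barcodes) lay in platelets, 1183 (9.68%) in the left-out barcodes, and 2950 (24.1%) in all others. In early AVFs, platelets held 2540 (33.0%), the left-out barcodes 3385 (44.0%), and others 1765 (23.0%). In late AVFs the values were 1012 (37.5%), 390.0 (14.4%), and 1297 (48.1%). Over the 10 genes that the limits did not use, platelets held 64.3%, 36.7%, and 51.1% of the UMIs in veins, early AVFs, and late AVFs. The left-out barcodes held 9.66%, 50.7%, and 17.9% of them, and the others 26.1%, 12.5%, and 31.0%. Levels are given per 1000000 UMIs of the same barcodes (CPM). The 14 genes gave 22984, 26320, and 24314 CPM in platelets and 102, 31.7, and 13.2 in the other barcodes. A UMI of these genes was found in 1142 (19.4%), 523 (11.3%), and 789 (13.7%) of the other barcodes.

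**Figure D2:**
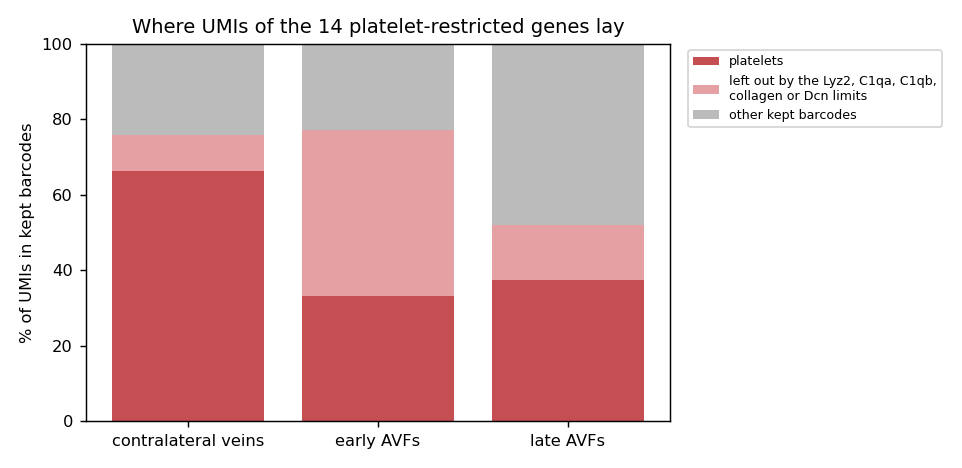
UMIs of the 14 platelet-restricted genes in kept barcodes, as a percentage in platelets, in barcodes rich in platelet genes but left out for macrophage or collagen genes, and in all others, for each single-cell library. Platelets held 66.2% in veins and 33.0% in early AVFs, where the left-out barcodes held 44.0%. The 4 genes that chose the platelets are among the 14.

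*Treml1* served as the check of the cell type. Its level was 1001, 1927, and 1177 CPM in platelets of veins, early AVFs, and late AVFs, against 7.07, 5.49, and 0.356 in the other barcodes. A *Treml1* UMI was seen in 55.3%, 64.3%, and 47.2% of platelets. In barcodes with at least 1.5% collagen and *Dcn* UMIs, which should lack it, the share was 2.18%, 1.88%, and 0.190% at a median of 4796, 21079, and 24827 UMIs. With every barcode thinned to 500 UMIs, the shares were 38.8%, 51.8%, and 27.8% in platelets and 1.00%, 1.09%, and 0% in the collagen-rich barcodes.

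The platelets carried nearly all of the platelet genes that were listed by role. Of the 85 genes, 84 had a UMI in platelets of veins, 77 in early AVFs, and 76 in late AVFs, and 75 had one in each of the 3 libraries. *Tbxa2r*, the thromboxane receptor, had none in any library. Their summed level was 10.8%, 14.0%, and 12.2% of platelet UMIs, and the median gene was 9.31, 8.81, and 11.0 times its level in the other barcodes. At least a 5-fold excess, with 10 CPM added to both sides, was seen for 50, 44, and 50 of the 81 genes that the limits did not use. Of all genes with a platelet UMI, 2.40%, 4.48%, and 6.40% had such an excess. Lower levels than in the other barcodes, in each library, were found for 7 genes, namely *Ccl5*, *Sparc*, *Pdgfb*, *Apbb1ip*, *Tbxa2r*, *Runx1*, and *Mef2c*.

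UMIs count transcripts from their 3′ ends, so levels of different genes are given without a correction for gene length. Granule chemokines were among the highest messages. *Pf4*, platelet factor 4, stood at 10203, 16756, and 11556 CPM in platelets and at 346, 1546, and 280 in the other barcodes. *Ppbp*, the precursor of a neutrophil-attracting chemokine, stood at 8173, 6622, and 7976 against 44.8, 36.0, and 5.13. The 2 genes differed in where their UMIs lay. Platelets held 69.0% of all kept *Ppbp* UMIs in veins, 24.2% in early AVFs, and 39.7% in late AVFs. They held 26.5%, 1.84%, and 1.72% of *Pf4* UMIs, so *Pf4* of AVFs lay almost entirely in other barcodes. *Ccl5*, the third chemokine listed, was lower in platelets (8.53, 31.1, and 24.0) than in the others (145, 120, and 176).

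Among other granule cargo, platelets stood apart for *F5*, coagulation factor V, with 1069, 1026, and 745 CPM against 8.14, 7.25, and 2.44. *Vwf*, von Willebrand factor, also a product of endothelial cells, was at 941, 1047, and 721 in platelets and 227, 8.35, and 3.22 in the other barcodes. *Thbs1*, thrombospondin 1, was at 3076, 3140, and 2595 in platelets and at 59.2, 1218, and 479 elsewhere. *Vwf* and *Thbs1* thus had similar levels in the 3 libraries when summed over all platelets. Without the platelets over 5000 UMIs, *Vwf* was at 0.93-fold and *Thbs1* at 0.89-fold in early AVFs over veins. In late AVFs over veins, *Vwf* was then at 0.56-fold and *Thbs1* at 0.62-fold. In the other barcodes of early AVFs, *Vwf* was at 0.04 and *Thbs1* at 20.6 times the vein level. *Clu*, clusterin, was at 1689, 3223, and 3147. *Selp*, P-selectin, was low at 76.8, 31.1, and 48.1. *Sparc* was lower in platelets (566, 746, and 985) than in the others (4870, 4160, and 5793).

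By median fold over the other barcodes, with 10 CPM added to both sides, the GPIb-IX-V genes led the role lists at 37.0, 52.0, and 64.3. Cytosolic signalling genes came next in early and late AVFs and in veins, at 34.6, 54.1, and 32.9. The integrin list was at 20.3, 17.7, and 24.3 in veins, early AVFs, and late AVFs. *Gp9* and *Itga2b* chose the barcodes, so these folds partly restate that choice. The 4 genes of the GPIb-IX-V complex, which binds von Willebrand factor, summed to 2914, 5119, and 4204 CPM in platelets and 18.2, 14.5, and 1.33 in the others. *Gp9* alone gave 1691, 3689, and 2667, and *Gp5* gave 668, 819, and 1009. *Gp1ba*, the ligand-binding chain, gave 298, 187, and 288, and *Gp1bb* 256, 425, and 240.3. The 7 genes of the fibrinogen integrin and its activation summed to 11385, 12487, and 11004, led by *Itga2b* at 3980, 4684, and 3556, with *Itgb3* at 1956, 2021, and 1369. Its activators *Fermt3* (kindlin 3) and *Rasgrp2* were at 1649, 1990, and 1658 and at 887, 1078, and 673.

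For collagen and podoplanin receptors and their adaptors, the median fold was 3.71, 5.53, and 4.70. *Clec1b*, the podoplanin receptor CLEC-2, gave 2780, 3699, and 2787 CPM, and *Gp6*, the collagen receptor, gave 463, 394, and 697. *Fcer1g*, the signalling chain that *Gp6* shares with receptors of myeloid cells, gave 836, 1938, and 1321 in platelets and 171, 1220, and 432 elsewhere. *Cd9*, a tetraspanin, gave 8796, 13160, and 9658. *Mpig6b*, an inhibitory receptor, gave 486, 601, and 360.

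Receptors for soluble agonists were sparse, with a sum over 9 genes of 1097, 984, and 961 CPM. *P2ry12*, the ADP receptor, was at 401, 290, and 408, and *P2rx1*, an ATP-gated channel, at 270, 373, and 168. *F2rl3*, a thrombin receptor, *Ptger3*, and *Adra2a* had no UMI in platelets of either AVF library. Of the enzymes of eicosanoid synthesis, *Alox12*, the platelet 12-lipoxygenase, was at 2092, 2124, and 2210.3 against 14.2, 5.60, and 0.884 elsewhere. *Ptgs1*, cyclooxygenase 1, was at 335, 249, and 192.

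Cytosolic signalling genes gave the largest sums, 25696, 36279, and 32386 CPM over 6 genes. *Nrgn*, neurogranin, a calmodulin-binding protein, stood at 9404, 14621, and 13766 against 92.8, 39.1, and 8.47 in the others. *Gng11*, a G protein gamma subunit, stood at 9651, 14746, and 11532. *Plek*, pleckstrin, was at 3201, 2466, and 3075. Of 14 cytoskeletal genes, *Myl9*, a myosin light chain, was highest at 2271, 4425, and 3412, and *Tubb1*, the tubulin of the platelet marginal band, was at 304, 301, and 697.

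Messages of megakaryocyte transcription factors were present at low levels, 813, 580.3, and 697 CPM over 8 genes. *Nfe2* was at 188, 114, and 216 against 2.11, 4.08, and 1.36 elsewhere, and *Gata1* at 56.9, 72.5, and 96.1 against 0.312, 0.0898, and 0.0102. *Tal1* was at 156, 31.1, and 72.1. *Runx1* was lower in platelets (45.5, 41.5, and 48.1) than in the others (74.6, 188, and 208).

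**Figure D3:**
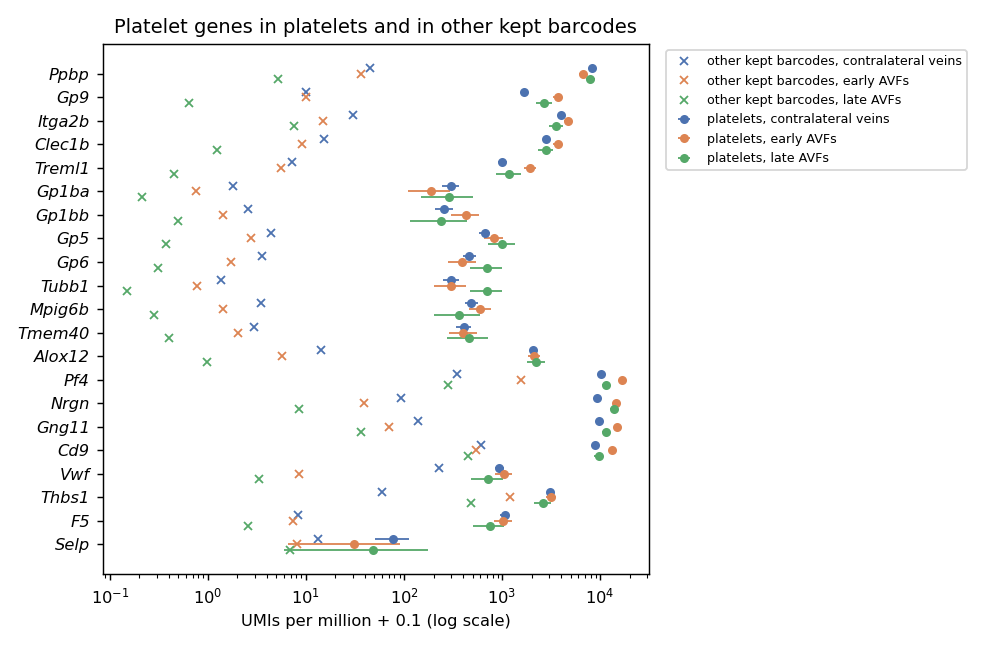
Levels of platelet genes in platelets (dots, with exact Poisson intervals) and in all other kept barcodes (crosses) of the 3 single-cell libraries, in CPM plus 0.1 on a log axis. *Nrgn*, *Gng11*, and *Pf4* have the highest dots of each library, and the highest crosses are those of *Pf4* and *Thbs1* in early AVFs.

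Beyond the listed genes, *Tmsb4x*, which encodes an actin-sequestering peptide, had the highest level in platelets of each library at 85437, 151653, and 99320.1 CPM. *Ctla2a* was next among genes with a large excess, at 21816, 41501, and 25851 against 358, 161, and 73.3 elsewhere. By the median fold of the 3 libraries over the other barcodes, *Nrgn* (298), *Ctla2a* (243), *Clec1b* (194), *Itga2b* (190), *Gp9* (186), *Gng11* (182), and *Ppbp* (149) led, with 10 CPM added to both sides. *1810058I24Rik* (72.3), *Ctla2b* (63.7), *Tsc22d1* (59.7), *Prkar2b* (50.7), *Atp2a3* (46.8), and *Sh3bgrl2* (46.5) were among the 20 highest without being in the role lists. Barcodes were chosen by 4 of these genes, so the folds describe the choice and carry no test.

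RNA of other cells was present in the platelet barcodes. The erythroid list (6 genes) summed to 128852, 3523, and 1970.1 CPM in platelets and to 110170.0, 11264, and 245 in the other barcodes. The macrophage list (8 genes, 3 of them held under the limit) summed to 2226, 3938, and 3580 in platelets, with *Lyz2* at 1825, 3616, and 3003. The neutrophil list (5 genes) summed to 37.0, 736, and 240.3, with *Retnlg* and *Cxcr2* at 0 in each library. The fibroblast list (6 genes, including those of the collagen limit) summed to 4514, 3088, and 5021 in platelets and to 33010, 19603, and 30510 in the others. Schwann cell genes gave 444, 8, and 11 platelet UMIs in all, and 1 vein barcode held 272 of the 444. Smooth muscle genes gave 79, 50, and 56 UMIs. T cell genes gave 5, 0, and 1 UMIs in all, and endothelial genes gave 50, 2, and 4. Their part in the levels above was not tested.

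Between libraries, most platelet genes stayed within 2-fold. Genes with at least 30 UMIs in the platelets of either library were compared as the ratio of their shares of platelet UMIs, with exact conditional intervals that cover counting error only. Of 1092 genes compared between early AVFs and veins, 63 were at least 2-fold higher (5.77%) and 178 were at least 2-fold lower (16.3%). The interval left out 1 for 63 of the higher and 131 of the lower genes. Among 63 platelet genes compared, 2 were higher, *Gp9* at 2.18-fold (1.91–2.49) and *Fcer1g* at 2.32-fold (1.92–2.79). Another 2 were lower, *Tal1* at 0.20-fold (0.04–0.61) and *Itga2* at 0.39-fold (0.19–0.73). Without the platelets over 5000 UMIs, *Gp9* was under the 2-fold line at 1.77-fold, *Fcer1g* was at 2.40-fold, *Tal1* at 0.25-fold, and *Itga2* at 0.27-fold. Hemoglobin UMIs were part of the totals, with *Hbb-bs* alone at 66407 CPM in vein platelets and 1409 CPM in early ones. This raises the ratios of all other genes in early AVFs over veins. With hemoglobin genes left out of the totals, fewer platelet genes were at least 2-fold higher. The median platelet gene was at 1.04-fold and the median of all compared genes at 0.94-fold. In the other barcodes *Gp9* was at 1.01-fold and *Fcer1g* at 7.13-fold.

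*Treml1* lay just under the 2-fold line at 1.93-fold (1.60–2.31), as did *Myl9* at 1.95-fold (1.73–2.19) and *Clu* at 1.91-fold (1.66–2.19). *Ppbp* was at 0.81-fold (0.74–0.88), *Itga2b* at 1.18-fold (1.06–1.31), and *Clec1b* at 1.33-fold (1.18–1.5). Without the platelets over 5000 UMIs, *Treml1* was at 1.54-fold, *Myl9* at 1.61-fold, *Clu* at 1.37-fold, *Ppbp* at 0.80-fold, *Itga2b* at 0.99-fold, and *Clec1b* at 1.05-fold. Some genes outside the lists entered the comparison through 1 library alone. *Spp1* went from 1 UMI to 44, or 160-fold (27.3–6477), and was at 168-fold in the other barcodes. *S100a9* was at 18.7-fold, *Il1b* at 18.2-fold, and *Cxcl2* at 9.67-fold, against 9.57, 21.9, and 8.86 in the other barcodes. *Hbb-bs*, a beta globin, was at 0.021-fold in platelets and 0.11-fold elsewhere. Of the 63 genes higher in early platelets, 35 were also at least 2-fold higher in the other barcodes, and their part in the platelet values was not tested.

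**Figure D4:**
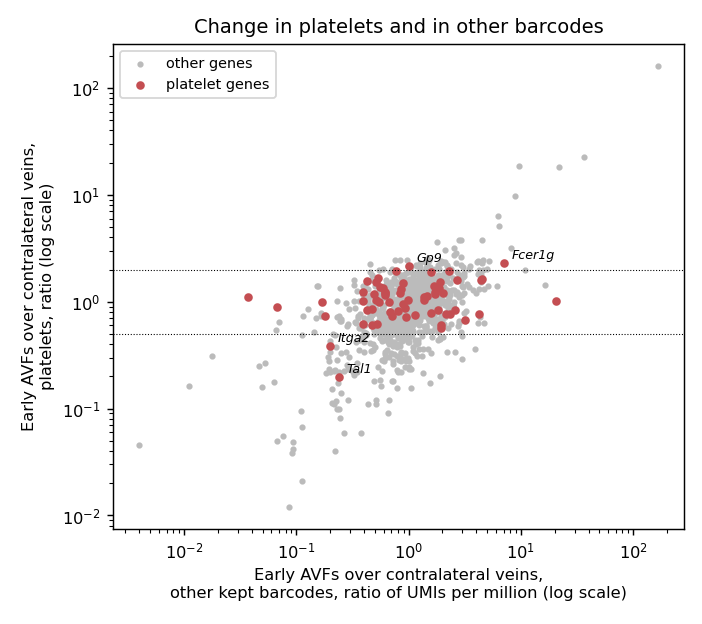
Ratio of early AVFs over veins in platelets (vertical) against the same ratio in the other kept barcodes (horizontal), both on log axes, for genes with at least 30 platelet UMIs in either library. Platelet genes (red) lie near 1 on the vertical axis with a median of 1.04, and dotted lines mark 2-fold differences.

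Between late AVFs and veins, 112 of 1088 genes were at least 2-fold higher (10.3%) and 97 at least 2-fold lower (8.92%). The counting interval left out 1 for 95 of the higher genes but for only 32 of the lower ones. Of 63 platelet genes, *Tubb1* was higher at 2.29-fold (1.46–3.48) and *Tal1* lower at 0.46-fold (0.09–1.42), and the median was 1.06-fold against 1.08-fold for all genes. The *Tubb1* value rested on 1 barcode, since without platelets over 5000 UMIs it was 0.96-fold. Without those barcodes, 10 of 63 platelet genes (15.9%) were at least 2-fold lower in late AVFs, against 14.8% of all 1059 genes then compared. The median platelet gene was then at 0.77-fold and the median of all genes at 1.00-fold. Outside the lists, the highest ratios were those of the chemokine *Cxcl1* at 18.0-fold, *Ccl2* at 11.6-fold, the small heat-shock protein gene *Hspb1* at 11.1-fold, and *Cxcl2* at 10.2-fold. In the other barcodes these genes were at 13.5-, 5.37-, 7.46-, and 5.07-fold. Without the platelets over 5000 UMIs they were at 24.9-, 15.9-, 14.5-, and 14.1-fold. *Cxcl1* entered the comparison through late AVFs alone, with 23 UMIs in platelets of veins and 49 in those of late AVFs.

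Between late and early AVFs, 26 of 392 genes were at least 2-fold higher (6.63%) and 19 at least 2-fold lower (4.85%). The counting interval left out 1 for 26 of the higher and 16 of the lower genes. None of 48 platelet genes was higher, and 2 were lower, among them *P2rx1* at 0.45-fold (0.17–1.03), or 0.23-fold without the platelets over 5000 UMIs. The median platelet gene was at 0.83-fold and the median of all genes at 0.94-fold. Outside the lists, *C3*, a complement component, was at 7.65-fold, *Dnajb1*, a chaperone gene, at 6.05-fold, and *Klf6*, a transcription factor, at 5.80-fold. These genes entered the comparison through late AVFs alone, with 10, 18, and 16 UMIs in early platelets and 33, 47, and 40 in late ones. They were at 4.46-, 3.92-, and 1.58-fold in the other barcodes, and at 5.97-, 4.53-, and 4.27-fold in platelets of up to 5000 UMIs.

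The bulk libraries gave an independent measure of the same genes in 25 other vessels, with replicates. Library totals were 20254173–29913427 counts for veins. Early AVFs had 23676215–67457501, mid AVFs 27021483–33395623, and late AVFs 27855449–36879746. Veins had fewer genes with a count (11958–18283) than early (17514–25141), mid (25075–26168), or late AVFs (24529–26771), so zeros of low genes were more frequent in veins. Levels are CPM of the whole library, and comparisons used edgeR's quasi-likelihood test over 12673 genes, with a call at an adjusted *p* under 0.01 and at least a 2-fold difference. In whole vessels, fewer platelets and less RNA per platelet cannot be told apart, and neither can platelets and other cells that carry the same message.

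The platelet-restricted genes had a higher summed level in early AVFs than in contralateral veins in the bulk data. The platelet share of single-cell barcodes had the opposite order, but it counts barcodes rather than RNA. Over all deposited single-cell barcodes, the 14 genes gave 415, 80.2, and 25.6 CPM in veins, early AVFs, and late AVFs. The single-cell vessels came from other animals and other harvest days, and they alone were digested and lysed for red blood cells. Summed over the 14 genes, bulk veins had 32.5 to 259 CPM (median 82.7) and bulk early AVFs 134 to 1844 CPM (median 606). Mid AVFs had 103 to 366 CPM (median 234), and late AVFs 214 to 814 CPM (median 338). The groups overlapped, and the highest early value belonged to AVF 5, followed by AVFs 6, 3, and 7. AVFs 5, 6, and 3 were also the early AVFs with the fewest genes with a count. The other early AVFs summed to 134, 156, 185, 396, and 816 CPM, and the first 3 of these values lay within the range of veins. Of 14 genes, 2 to 12 were listed at 0 in each vein, 0 or 1 in each early AVF, and 1 in each mid and late AVF. *Gp1bb* was at 0 in the 7 veins and in each mid and late AVF, and it was not tested.

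Of the 13 restricted genes tested, each had a positive fold change in early AVFs, and 3 passed the test, among them *Gp9* and *Tmem40*, against 6.17% of all tested genes called higher. Their median log2 fold change was 2.72, and that of all genes −0.01. In mid AVFs, 1 of 13 was called higher, *Tmem40*, with 12 positive and a median of 1.06, against 2.74% of all genes. In late AVFs *Tmem40* was again the single call, with 13 positive and a median of 1.77, against 2.49% of all genes. No restricted gene was called between late and early AVFs by edgeR (median −0.73), and 0 of 13 had an unadjusted *p* under 0.05.

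*Gp9* was at 0 in 4 of 7 veins and reached 14.5 CPM at most. Early AVFs held 13.3 to 442 CPM (median 65.0), mid AVFs held 8.72, 13.3, 21.0, 22.5, and 37.4, and late AVFs held 13.5, 25, 26.4, 37.0, and 55.7. The lowest early AVF lay within the range of veins, and the highest stood apart at AVF 5. The log2 fold change of early AVFs was 5.02 ± 1.28 (SE, edgeR adjusted *p* = 0.00499). It was 4.29 without AVF 5, with an edgeR adjusted *p* of 0.0163, and 3.30 without the 3 early AVFs with the fewest genes (edgeR adjusted *p* = 0.0952), and neither passed the threshold. Differences of 2.51 in mid (edgeR adjusted *p* = 0.187) and 3.15 in late AVFs (edgeR adjusted *p* = 0.100) did not pass.

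*Ppbp* was at 0.126 to 121 CPM in veins (median 38.4) and 51.8 to 757 CPM in early AVFs (median 278). Mid AVFs had 37.3, 56.0, 78.9, 115, and 119 CPM, and late AVFs had 55.8, 95.1, 104, 173, and 301 CPM. Early AVFs 2, 7, 3, 6, and 5 were above each vein, and AVFs 4, 10, and 1 were within their range. The log2 fold change of early AVFs, 2.80 ± 0.87, missed the threshold (edgeR adjusted *p* = 0.0207) and passed it with DESeq2 (2.77, adjusted *p* = 0.0038). In mid and late AVFs the values were 0.67 (edgeR adjusted *p* = 0.705) and 1.54 (edgeR adjusted *p* = 0.303).

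*Treml1* was at 0 in 4 of 7 veins but at 19.4 CPM in vein 31. Early AVFs held 4.04 to 63.0 CPM (median 19.1), mid AVFs 2.85, 7.24, 9.26, 12.8, and 14.6, and late AVFs 6.88, 6.92, 10.5, 13.6, and 19.3. Vein 633, at 4.77 CPM, was also above the lowest early and mid AVF, so the groups overlapped through these veins, and the early fold change of 3.00 ± 1.25 on the log2 scale missed the threshold (edgeR adjusted *p* = 0.0854).

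*Tmem40*, whose product is a membrane protein, was called in each AVF group. Veins had 0 CPM in 5 of 7 and at most 0.373 CPM, and early AVFs had 0.331 to 40.9 CPM (median 2.75). Mid AVFs had 1.04, 2.92, 3.51, 5.12, and 5.29 CPM, and late AVFs 2.43, 3.55, 5.29, 5.46, and 9.50 CPM. Mid and late AVFs were above every vein, and 1 early AVF overlapped with them. The log2 fold changes of early, mid, and late AVFs were 6.89, 5.59, and 6.16 (edgeR adjusted *p* = 0.000249, 0.00301, and 0.0019). Without the 4 veins with the fewest genes, the mid and late values were 4.76 (edgeR adjusted *p* = 0.0295) and 5.32 (edgeR adjusted *p* = 0.0208), which missed the threshold. With veins mostly at 0, their size depends on the prior count of the fit.

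Of the restricted genes that did not pass in early AVFs, *Gp6* was at 0 in 5 of 7 veins, at most 3.49 CPM, and at 1.43 to 21.8 CPM in early AVFs, with a log2 difference of 4.08 (edgeR adjusted *p* = 0.0163). *Clec1b* ran from 0 to 19.5 CPM in veins and 8.19 to 177 CPM in early AVFs, with a difference of 2.72 (edgeR adjusted *p* = 0.0561). *Itga2b* ran from 0 to 50.3 and from 17.4 to 126 CPM (1.57, edgeR adjusted *p* = 0.168). The smallest differences were those of *Alox12* (1.37, edgeR adjusted *p* = 0.331) and *Tubb1* (0.43, edgeR adjusted *p* = 0.795).

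**Figure D5:**
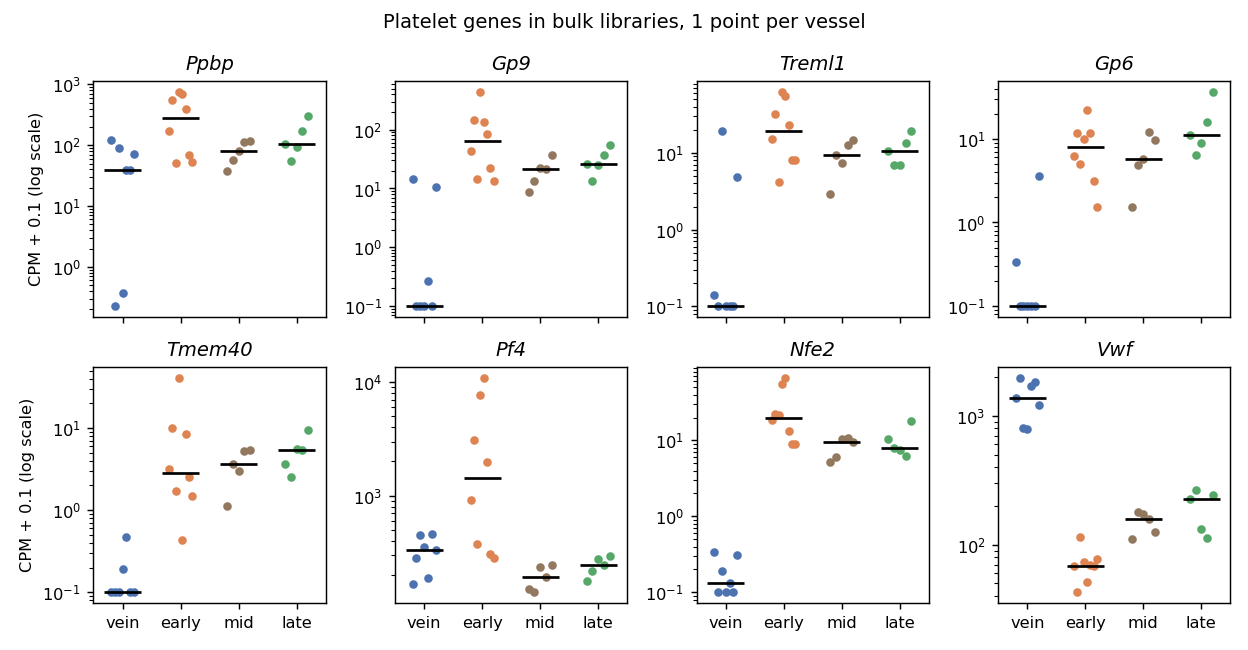
CPM plus 0.1 on a log axis of 8 platelet genes in each bulk vessel, with the group median as a bar. *Gp9*, *Gp6*, *Tmem40*, and *Nfe2* were at or near 0 in most contralateral veins, *Pf4* ranged up to 10939 CPM in early AVFs, and *Vwf* was lower in each AVF than in every vein.

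Over the wider lists by role, 78 of 85 genes were tested, and the calls went both ways. In early AVFs, 15 were higher (19.2%, against 6.17% of all genes) and 6 lower (7.69%, against 6.45%), with 54 positive and a median log2 fold change of 1.29. Mid AVFs had 7 higher and 6 lower (all genes 2.74% and 3.31%, median 0.51). Late AVFs had 6 higher and 5 lower (2.49% and 2.85%, median 0.71). By role, the medians in early AVFs ran from 2.80 for chemokines and 2.41 for collagen receptors and adaptors to −0.21 for transcription factors and −0.43 for agonist receptors.

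Of the called genes, many lay mainly in other barcodes of the single-cell libraries. *Pf4* ran from 164 to 457 CPM in veins (median 333) and 279 to 10939 CPM in early AVFs (median 1442), with AVFs 6, 5, 3, and 7 the highest. Mid AVFs had 140.3, 149, 193, 234, and 244 CPM, and late AVFs 175, 215, 243, 274, and 290.0 CPM, within the range of veins or below it. It rose in early AVFs by 3.41 ± 0.64 on the log2 scale (edgeR adjusted *p* = 0.000308), and fell from early to late AVFs by 3.80 (edgeR adjusted *p* = 0.00372). Its early value was 1.23 without the 3 early AVFs with the fewest genes (edgeR adjusted *p* = 0.0341).

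*Fcer1g* rose with it in early AVFs, by 3.19 (edgeR adjusted *p* = 2.66e-06), from 91.4–320 CPM in veins (median 235) to 569.8–5009 CPM (median 1029) with no overlap. *Srgn*, serglycin, which packs granule contents, rose by 1.53 (edgeR adjusted *p* = 0.00466), from 141–614 to 260–1920 CPM. Without the 3 early AVFs with the fewest genes, its difference was 0.50 (edgeR adjusted *p* = 0.29). Both fell from early to late AVFs, by 2.54 (edgeR adjusted *p* = 0.00241) and 2.04 (edgeR adjusted *p* = 0.00535). Without those 3 early AVFs the values were −1.40 (edgeR adjusted *p* = 0.0125) and −1.07 (edgeR adjusted *p* = 0.104), and neither passed. For late against early AVFs as a whole, 2 of 78 genes were higher (0.726% of all genes) and 3 lower (2.28%).

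*Nfe2*, the erythroid and megakaryocyte transcription factor, was almost absent from veins, at 0 to 0.237 CPM. Early AVFs held 8.75 to 66.8 CPM (median 19.9), mid AVFs 5.15, 6.00, 9.47, 10.3, and 10.7, and late AVFs 6.08, 7.42, 7.86, 10.4, and 17.7, each above every vein. The log2 fold changes were 8.31 ± 0.92, 6.58, and 6.82 (edgeR adjusted *p* = 2.32e-07, 9.31e-06, and 7.98e-06). In the single-cell libraries, platelets held 52% of *Nfe2* UMIs in veins but 4.62% in early AVFs and 6.29% in late AVFs. *Gata1* was under the count minimum, at 0 in 6 of 7 veins and at 0.0751 to 3.77 CPM in early AVFs.

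*Vwf* moved the other way. Veins held 789 to 1973 CPM (median 1366), early AVFs 42.6 to 115 CPM (median 68.4), mid AVFs 109.6, 125, 157, 174, and 180 CPM, and late AVFs 113, 133, 225, 243, and 264 CPM. Each AVF was below every vein, and *Vwf* fell by 4.26, 3.20, and 2.83 on the log2 scale (edgeR adjusted *p* = 1.04e-11, 5.62e-08, and 4.67e-07). Platelets held 4.81%, 17.8%, and 8.65% of its UMIs in the single-cell veins, early AVFs, and late AVFs. *Esam*, *Ptgs1*, *Myl9*, and *Flna*, of which platelets held 5.41%, 5.89%, 22.3%, and 6.95% in the single-cell veins, also fell in early, mid, and late AVFs. *Myl9* had the largest of these differences, from 3331–6895 CPM in veins to 271–1356 CPM in early AVFs (−2.93, edgeR adjusted *p* = 2.49e-08).

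The other genes called higher in early AVFs were *Tgfb1* (4.30), *Unc13d* (5.15), *Itga2* (3.61), *Syk* (1.53), *Myh9* (1.33), *Tagln2* (1.60), *Plek* (2.29), and *Runx1* (2.07), as log2 fold changes. Without the 3 early AVFs with the fewest genes, *Itga2*, *Myh9*, *Plek*, and *Runx1* were not called. *Mmrn1*, multimerin 1, was lower in early AVFs (−2.70, edgeR adjusted *p* = 0.00893) and higher in late than in early AVFs (3.48, edgeR adjusted *p* = 0.00711). Neither call held with a sex term, where the values were −2.51 (edgeR adjusted *p* = 0.0285) and 3.39 (edgeR adjusted *p* = 0.0116). None of the 78 genes was called between mid and early AVFs by edgeR (0.00789% of all genes higher and 0% lower). Of the 78, 16 had an unadjusted edgeR *p* under 0.05, and DESeq2 called 1 higher and 3 lower. Shares of all genes were not computed for these last counts, so they are not read as a result about platelet genes.

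Markers of other cells moved with these values in the bulk vessels. Genes counted here as risen, fallen, or lower were called by edgeR against veins. Of all tested genes, 6.17% were called higher and 6.45% lower in early AVFs. The shares called lower were 3.31% in mid and 2.85% in late AVFs. The neutrophil list summed to 0.0808–105 CPM in veins and 220.4–4056 in early AVFs, where 5 of 5 genes rose. It was 113–327 CPM at the mid time and 92.8–232 CPM at the late time. The macrophage list summed to 2089–8219 CPM in veins and 11268–34595 in early AVFs, where 6 of 8 rose, and to 10598–15344 and 7244–16877 in mid and late AVFs. The endothelial list summed to 817–1780.0 CPM in veins and 185–388 in early AVFs, with 4 of 6 genes lower in each AVF group, and the smooth muscle list to 9356–21098 and 924–2468, with 5 of 5 lower. The erythroid list ran from 3456 to 18152 CPM in veins. Its range was 1288 to 17318 in early AVFs, 1004 to 4917 at the mid time, and 434 to 1405 in late AVFs, where 5 of 6 genes fell. The part of these cells in the platelet-gene results was not tested.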

How the data were processed

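Single-cell files held UMI counts per gene and barcode, deposited by the authors from Cell Ranger 6.0.2 output (matrix header). The bulk file held raw counts per gene and vessel, deposited by the authors without normalization. The submitters' processing notes name STAR and Cell Ranger, and mm10 and GRCm38, without roles, and neither counter nor annotation of the bulk table is given in the sources used here. Groups came from the sample labels, which give 1 bulk library per vessel. The platelet limits, the 85 genes by role, and the 14 restricted genes were chosen with earlier results of these data known. Named genes were members of these lists, the 30 highest by level, the 20 highest by fold among genes seen in at least 10% of platelets, and up to 12 per direction between libraries. Markers of other cells were named with their lists. The values of 1 listed gene, which the counts include, are not reported here.

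UMIs were summed over platelets and over the other kept barcodes, including left-out barcodes unless stated, and divided by all UMIs of the same barcodes (Python 3.11.15, scanpy 1.11.5, scipy 1.17.1). Shares carry exact binomial intervals, and ratios exact conditional intervals, at 95%. Barcodes shared between libraries numbered 19, 14, and 16. Doublets were scored with Scrublet and kept.

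For bulk, 12673 of 56980 genes, those averaging 100 or more DESeq2-normalized counts, were fitted with edgeR 4.0.16 (R 4.3.3), TMM scaling, a mean for each group, and no covariate. The common dispersion was 0.710. *P* values were adjusted by Benjamini–Hochberg over all tested genes. DESeq2 1.42.0, a likelihood ratio test, other filters, a sex term, 2 groups at a time, and leaving out each library were alternatives. Scripts were tested on simulated counts first.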

Additional observations from a re-analysis of the deposited data

Results flagged for a closer look

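Single vessels stood far above the rest of their group in 12 of 52 checks of the restricted genes and their sum, each time as the highest library. The critical values are made for normally spread values, and CPM with zeros are not. The genes were also measured in the same vessels, so no chance rate is set against this count. Early AVF 5 was highest for *Gp9* (442 CPM, next 148), *Clec1b* (177, next 48.9), *Mpig6b* (66.1, next 28.3), and *Tmem40* (40.9, next 9.92). Early AVF 7 was highest for *Tubb1* (43.9, next 22.8). Late AVF 24 was highest for *Itga2b* (107, next 52.2), *Gp1ba* (14.2, next 6.54), and *Mpig6b* (18.3, next 9.61). Among veins, vein 31 was highest for *Treml1* (19.4, next 4.77), vein 35 for *Gp1ba* (10.1, next 1.30) and *Tmem40* (0.373, next 0.0901), and vein 633 for *Gp6* (3.49, next 0.237).

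The difference between AVF times was tested directly for 78 genes, and 5 passed in edgeR (adjusted *p*). The log2 fold changes of late against early AVFs were −3.80 for *Pf4* (adjusted *p* = 0.00372), 3.48 for *Mmrn1* (adjusted *p* = 0.00711), −2.04 for *Srgn* (adjusted *p* = 0.00535), 1.43 for *Vwf* (adjusted *p* = 0.00228), and −2.54 for *Fcer1g* (adjusted *p* = 0.00241). Each missed the threshold without late AVF 16 (edgeR adjusted *p* = 0.0166, 0.0205, 0.0207, 0.0101, and 0.0126, in the same order) and without the 3 early AVFs with the fewest genes (edgeR adjusted *p* = 0.0558, 0.0482, 0.104, 0.022, and 0.0125).

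Barcodes that no comparison used held platelet transcripts too: 126 in veins, 14 in early AVFs, and 12 in late AVFs met the platelet limits but had over 10% mitochondrial UMIs.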

How the results depend on the processing

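The order of the platelet shares, veins over early over late AVFs, was the same in each alternative run. The vein share was 4.19% with at least 100 genes per barcode, 4.16% with no gene minimum, 6.50% and 4.42% with platelet genes at 0.25% and 1% of UMIs, and 6.36% without the macrophage limit, where early AVFs had 2.29% and late AVFs 0.962%. Late AVFs had 0.361% at 1%. Under 1000 UMIs, a choice made after seeing the data, the shares were 21.3%, 9.70%, and 7.20%.

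Counts of platelet genes past 2-fold between libraries moved most where each platelet was weighted equally (early over veins 4 lower, late over veins 15 lower, late over early 5 lower and 1 higher). With at least 100 UMIs they were 1, 0, and 0 lower. Without platelets over 5000 UMIs, chosen after seeing the data, 4 and 10 were lower in early and late AVFs than in veins, and *Tubb1* in late AVFs turned to 0.962-fold. Without hemoglobin genes, also chosen later, 1 was higher in early and 3 lower in late AVFs than in veins. With platelet genes at 1%, 1 was lower in late than in early AVFs.

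In bulk, the early genes called higher numbered 28 with DESeq2, 25 with the likelihood ratio test, and 6 with the 2 groups fitted alone. They numbered 26 at an adjusted *p* under 0.05, and 5 without the 3 early AVFs with the fewest genes (6, 5, and 3). Shares of all genes called were computed for the main fit alone. The counts here and below therefore have no such share beside them and describe the settings only. Mid genes called higher numbered 12, 1, and 11 with DESeq2, 2 groups, and 0.05, and lower 3 with 2 groups. Late genes called higher numbered 12, 10, 2, and 13 with DESeq2, the likelihood ratio test, 2 groups, and 0.05. Without the 4 veins with the fewest genes (28, 31, 632, and 34), 14 were higher in mid and 13 in late AVFs, and *Tubb1* in early AVFs turned to −0.14 (edgeR adjusted *p* = 0.881). Without the 3 early AVFs, 4 were higher in mid AVFs. The veins and early AVFs with the fewest genes were left out after seeing the data. For late against early AVFs, a sex term gave 1 higher, 2 groups gave 1 lower, and leaving out those 3 early AVFs gave 0 in both directions. For mid against early AVFs, DESeq2, the likelihood ratio test, and 0.05 each gave 1 higher and 3 lower.

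Leaving out 1 vessel gave 11–22 higher and 5–7 lower in early AVFs, 5–11 and 5–6 in mid, 5–11 and 4–5 in late, 0–3 and 0–3 for late against early, and 0–1 and 0–3 for mid against early. Late genes called higher were 10 without vein 31 and 11 without vein 633, and mid genes 11 without vein 633. The late against early counts changed by over 1.5 times without early AVFs 1, 3, or 5 or late AVFs 16, 17, 19, 23, or 24, and the mid against early counts without early AVFs 1, 2, 4, or 10. No paired analysis was possible because the groups share no replicate numbers. The cause of these changes was not tested.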
